A study of Mus musculus with 6 samples.

Results

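RNA that came down with an antibody to CPEB4 was compared with the unselected input RNA of the same kind of cells, to describe which RNAs were over- or under-represented relative to their abundance in sorted muscle stem cells. The 4 libraries of the comparison were 2 of CPEB4 RIP and 2 of input, and every gene of the count table that passed a filter on low counts was taken, 18054 of 55376. The other 2 libraries of the series, of IgG RIP, were made with a nonspecific antibody and are set beside the results as the background of the assay. All 6 libraries came from muscle stem cells of C57BL/6 mice aged 3 months, isolated by fluorescence-activated cell sorting, and none of the groups carries a further allele or treatment in the labels. The labels do not name the animals, say whether animals were pooled or say whether an immunoprecipitate and an input were drawn from one lysate.

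RNA immunoprecipitation (RIP) pulls a protein out of a lysate with an antibody and sequences the RNA that stays with it. CPEB4 belongs to the CPEB family, cytoplasmic proteins that bind a U-rich element in the 3′ untranslated region of messages and, with the machinery that lengthens or shortens poly(A) tails, turn their translation up or down. Muscle stem cells lie quiescent along the fibre until injury activates them, and translational control of stored messages is known to be part of that switch. A ratio of immunoprecipitate to input is relative: a message that makes up a larger share of one pool leaves a smaller share for the rest.

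Libraries were made by SMART-seq2, a full-length cDNA method primed from poly(A) tails. Counts assigned to genes ranged from 9018323 to 20843042 over the 6 libraries, and from 12426827 to 20843042 over the 4 compared. The share of each library's total, as used by the authors for their FPKM values, that was assigned to genes was 76.7% and 77.8% in CPEB4 RIP, 64.2% and 69% in input and 63.4% and 74.6% in IgG RIP. At least 1 count was present for 29152 and 28321 genes in CPEB4 RIP and for 39264 and 36240 in input. Pearson r of log CPM between replicates, across 18054 genes that are not independent of each other, was 0.981 in CPEB4 RIP, 0.975 in input and 0.873 in IgG RIP, so the IgG RIP libraries stood farthest apart. The satellite cell factor Pax7 was present in both input libraries (151 and 174 CPM, counts per 1e6 after TMM scaling), as were Myf5 (1172 and 2298), Myod1 (851 and 750.5), Vcam1 (1643 and 1614) and Calcr (257 and 228). Genes of other cells in a muscle digest were present too. In input, the markers of fibro-adipogenic cells summed to 1612 and 1658 CPM, those of pericytes to 761 and 852, of endothelium to 629 and 638 and of myofibres to 455 and 500.4. Single markers ranged widely within these lists, as for the fibro-adipogenic collagen Col3a1 at 365 and 345 CPM and receptor Pdgfra at 4.89 and 3.2. The leukocyte antigen Ptprc stood at 3.48 and 3.44 CPM and endothelial Pecam1 at 39.7 and 44.1.

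Most ribosomal protein messages and messages of the mitochondrial genome were higher in CPEB4 RIP than in input, 78 of 82 and 9 of 13 (34 and 6 without CPEB4 RIP replicate 2). Of the lists described below, 11 of 20 aminoacyl tRNA synthetase genes, 8 of 29 nuclear pore genes and 8 of 23 genes of endoplasmic reticulum chaperones and stress were lower, and without CPEB4 RIP replicate 2 these counts were 0, 0 and 2. Of the 18054 genes, 2294 (12.7%) passed edgeR's quasi-likelihood test at an adjusted p under 0.05. Of these, 1445 (8% of all genes tested) were higher in CPEB4 RIP and 849 (4.7%) lower, and 1054 and 569 differed by at least 2-fold. The median log2 fold change of the genes that were higher was 1.27, or 2.40-fold, and of those that were lower -1.18, or 2.26-fold. Over all genes it was -0.06, with quartiles of -0.85 and 0.6. A value in parentheses after a gene is its fitted log2 ratio of CPEB4 RIP to input, with its standard error (SE) where given. In each gene described below as higher or lower, both CPEB4 RIP libraries lay on the same side of both input libraries.

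The split between directions moved with the scaling. Genes higher made up 63% of the calls after TMM scaling and 43.7% (1093 higher, 1409 lower) when libraries were scaled by total count alone, which moved the median of all genes from -0.06 to -0.27. With genes under a mean count of 20 left out, 49.9% of the calls were higher (1395 against 1401). The spread is estimated from all 6 libraries, and the IgG RIP replicates lie far apart. A fit of only the 4 libraries compared called 3546 genes higher and 3794 lower, among them 1445 and 847 of the calls above. Leaving out IgG RIP replicate 1 or 2 gave 4205 and 3761 or 4162 and 3780. Without CPEB4 RIP replicate 1, CPEB4 RIP replicate 2, input replicate 1 or input replicate 2, 524, 95, 354 or 534 genes were higher and 126, 22, 269 or 222 lower. Of the 203 genes picked out by the naming rule that had passed, 100, 163, 90 and 90 no longer passed in these fits, and none of the 203 changed direction in any alternative.

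Against the same input libraries, IgG RIP had 0 genes (0%) past the test in either direction. That count depends on the spread of the IgG RIP replicates, which lie far apart, so it does not show an empty background. At an unadjusted p under 0.05, IgG RIP had 2550 genes and CPEB4 RIP 5070, and DESeq2's Wald test called 428 genes higher and 277 lower in IgG RIP against 1964 and 1470 in CPEB4 RIP. The quartiles of the log2 fold change for IgG RIP over input were -0.42 and 0.47. Both comparisons rest on the same 2 input libraries, so their values are given side by side and no relation between them is drawn.

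**Figure D1:**
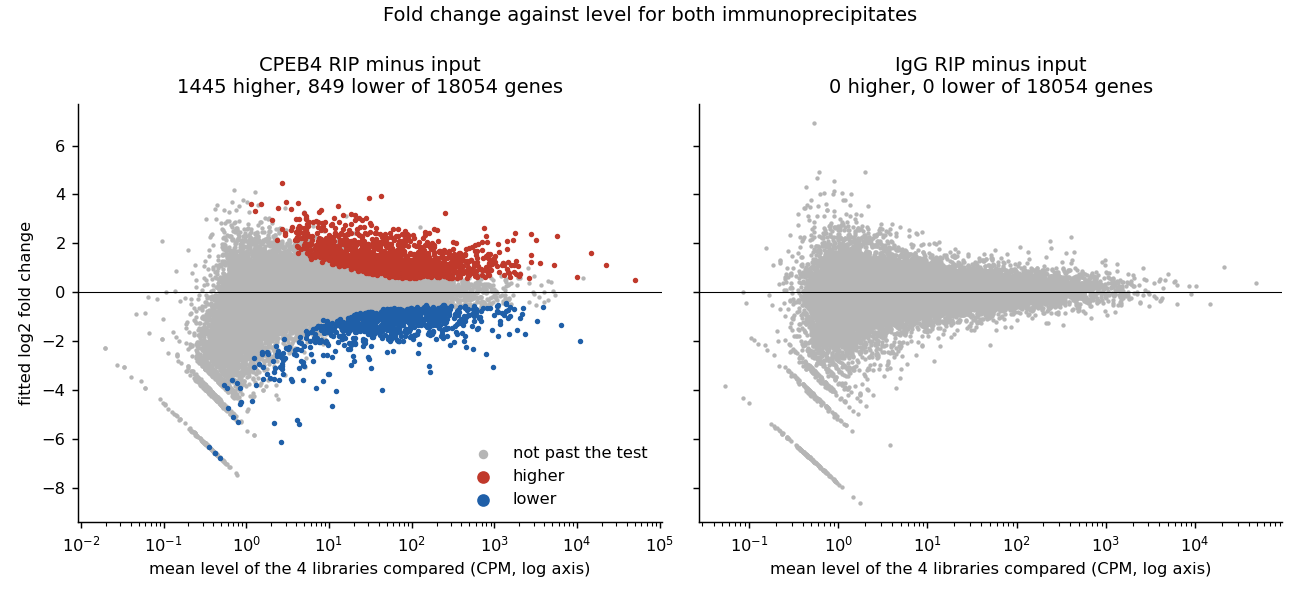
Fitted log2 fold change over input (vertical axis) against the mean level of the 4 libraries compared (CPM, log axis) for 18054 genes, for CPEB4 RIP on the left and IgG RIP on the right. Red points are the 1445 genes higher and blue points the 849 lower in CPEB4 RIP (adjusted p under 0.05, edgeR's quasi-likelihood test). Grey points did not pass. No gene passed in IgG RIP, whose replicates lie far apart.

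The widest rises joined a transcription factor, secreted and lysosomal proteins and RNAs tied to the mitochondrion. Cebpb, the C/EBP beta transcription factor of stress and differentiation programmes (chromosome 2, 167688915 to 167690432, GRCm38), stood at 72.3 and 89.4 CPM in CPEB4 RIP, 4.57 and 6.09 in input and 10.02 and 33.1 in IgG RIP. Both CPEB4 RIP libraries were above both input libraries, 15.2-fold by their means, and both IgG RIP libraries lay between the groups. The fitted log2 ratio to input was 3.93 (SE 0.54, adjusted p = 0.0053). Lars2, the leucyl tRNA synthetase of the mitochondrion, stood at 501 and 416 CPM in CPEB4 RIP, 54.8 and 41.1 in input and 154 and 190.4 in IgG RIP, for a fitted log2 ratio to input of 3.25 (SE 0.22, adjusted p = 0.00184). The IgG RIP libraries were again between the groups, at a log2 ratio to input of 1.84. Part of the mouse gene is known to resemble ribosomal RNA, so this value is uncertain. Igfbp7, a secreted binder of insulin-like growth factors, stood at 62.7 and 48.7 CPM in CPEB4 RIP, 8.21 and 8.12 in input and 22.8 and 19.8 in IgG RIP, for a fitted log2 ratio to input of 2.77 (SE 0.24, adjusted p = 0.00184).

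Pnrc1, a small nuclear receptor coactivator, and Bag1, a co-chaperone of HSP70, rose, and their IgG RIP libraries were nearer to input. Pnrc1 stood at 258 and 236 CPM in CPEB4 RIP, 41.4 and 48.9 in input and 66.4 and 59.5 in IgG RIP (2.45, SE 0.17). Bag1 stood at 49.7 and 43.1 CPM in CPEB4 RIP, 6.85 and 10.6 in input and 11.7 and 12.01 in IgG RIP (2.41, SE 0.28). Ryk, a receptor for Wnt ligands, stood at 72.9 and 88.7 CPM in CPEB4 RIP, 15.1 and 15.8 in input and 21.4 and 12.99 in IgG RIP (2.39, SE 0.28). In these 3 genes no IgG RIP library reached the lower CPEB4 RIP library. The other protein-coding genes among the 15 widest rises were Ubqln2 (2.74), which shuttles ubiquitinated proteins to the proteasome, the lysosomal sulfatase Ids (2.63), the depalmitoylase Abhd17a (2.6), the protein phosphatase 2A catalytic subunit Ppp2cb (2.4) and the ribosomal protein Rps12. The remaining RNAs were mt-Te, mt-Nd6, mt-Rnr1 and mt-Nd4, all of the mitochondrial genome. The test was no longer passed, at the log2 fold changes given, without CPEB4 RIP replicate 1 for mt-Te (3.09) and Abhd17a (2.55), without CPEB4 RIP replicate 2 for mt-Te (3.15), Ids (2.73), Abhd17a (2.82), Ppp2cb (2.43) and Ubqln2 (2.8), without input replicate 1 for Cebpb (3.75), mt-Te (2.53), Ids (2.31), Abhd17a (2.7), Ppp2cb (2.31) and Ubqln2 (2.6) and without input replicate 2 for mt-Te (3.81) and Abhd17a (2.54).

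The widest falls held small nucleolar and nuclear RNAs and messages of a varied set of proteins. Mir17hg, the host transcript of the miR-17-92 cluster (chromosome 14, 115044390 to 115046728), stood at 4.14 and 5.83 CPM in CPEB4 RIP, 76.9 and 86.04 in input and 18.9 and 17.8 in IgG RIP. The fitted log2 ratio to input was -4.01 (SE 0.25, adjusted p = 0.00184), 16.2-fold lower by the means, and the IgG RIP libraries lay between the groups at -2.15. Kcnq1ot1, the long antisense RNA of an imprinted locus, stood at 20.96 and 16.6 CPM in CPEB4 RIP, 88.4 and 112 in input and 83.2 and 60.3 in IgG RIP (log2 fold change -2.42, SE 0.24), so that IgG RIP overlapped neither group but lay nearer to input. Snora31, a guide RNA for pseudouridylation, stood at 1.16 and 0.525 CPM in CPEB4 RIP, 17.5 and 24.2 in input and 5.12 and 0.906 in IgG RIP, for a fitted log2 ratio to input of -4.66 (SE 0.82, adjusted p = 0.0123). It lies within the Tpt1 gene (chromosome 14, 75847923 to 75848034, inside 75845256 to 75848303), whose own counts rose, and no label states how reads lying over both genes were assigned.

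Among messages, Gfpt2, the enzyme that sets the rate of the hexosamine pathway, fell 5.77-fold. It stood at 229 and 236 CPM in CPEB4 RIP, 1348 and 1338 in input and 721 and 670.1 in IgG RIP, for a fitted log2 ratio to input of -2.53 (SE 0.13, adjusted p = 0.00184). Pros1, the anticoagulant protein S, stood at 168 and 203 CPM in CPEB4 RIP, 800.1 and 1065 in input and 421 and 469.9 in IgG RIP (-2.33, SE 0.19). Hbp1, a transcriptional repressor of cell cycle genes, stood at 153 and 169 CPM in CPEB4 RIP, 684 and 818 in input and 469 and 371 in IgG RIP (-2.22, SE 0.18). In all 3 the CPEB4 RIP libraries were the 2 lowest of the 6, and IgG RIP was also below both input libraries. The transporter Mfsd4a (-2.83), the deubiquitinase Usp33 (-2.72), the protocadherin Pcdhb9 (-2.33), the RNA polymerase II subunit Polr2b (-2.19), the importin relative Ranbp6 (-2.16), the kinetochore protein Zw10 (-2.08), the ARF GTPase activator Arfgap2 (-2.08) and the nuclear pore protein Nup160 (-2.08) were also among the 15 widest falls. Calls were lost, at the log2 fold changes given, without CPEB4 RIP replicate 1 for Snora31 (-5.17), Polr2b (-2.07), Ranbp6 (-2.17), Zw10 (-1.93) and Arfgap2 (-1.82), without CPEB4 RIP replicate 2 for Snora31 (-4.09), Mfsd4a (-2.32), Pcdhb9 (-2.42), Polr2b (-2.12), Ranbp6 (-1.97), Zw10 (-2.06), Arfgap2 (-2.19) and Nup160 (-1.89), without input replicate 1 for Snora31 (-4.85), Polr2b (-2.27), Ranbp6 (-2.24) and Arfgap2 (-1.84) and without input replicate 2 for Snora31 (-4.38), Polr2b (-2.06) and Ranbp6 (-2.03).

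**Figure D2:**
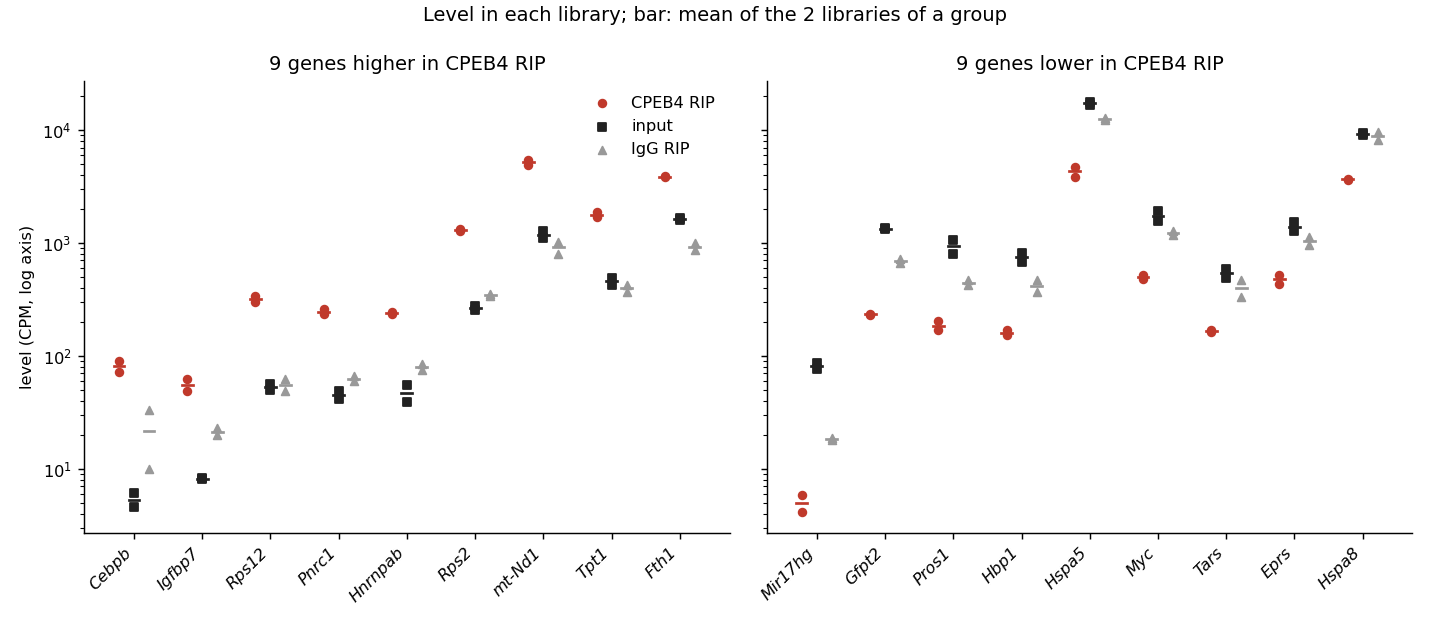
Level in each library (CPM, log axis) of 9 genes higher (left) and 9 lower (right) in CPEB4 RIP; points are single libraries and bars the mean of the 2 libraries of a group. In each of the 18 genes the CPEB4 RIP libraries (red) do not overlap the input libraries (black), and IgG RIP (grey) lies between them for Cebpb, Igfbp7, Mir17hg and Gfpt2 but at or below input for Fth1 and mt-Nd1.

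Among the called genes with the most counts, the rises included housekeeping, membrane and metal-binding messages. Sdc4, the heparan sulfate proteoglycan syndecan-4 of the satellite cell surface, stood at 57499.9 and 61956 CPM in CPEB4 RIP, 41597 and 41846 in input and 56836 and 52783 in IgG RIP, for a fitted log2 ratio to input of 0.52 (SE 0.1, adjusted p = 0.0161). Actb, cytoplasmic actin, stood at 27868 and 32928 CPM in CPEB4 RIP, 12872 and 14864 in input and 24272 and 33076 in IgG RIP (1.13, SE 0.17). For Actb the IgG RIP libraries overlapped those of CPEB4 RIP, and for Sdc4 both lay above both input libraries. Fth1, the ferritin heavy chain that stores iron, stood at 3869 and 3882 CPM in CPEB4 RIP, 1669 and 1595 in input and 862 and 989 in IgG RIP (1.25, SE 0.13), so that IgG RIP was below input where CPEB4 RIP was above it. The peroxidase Gpx3 (0.63), the metallothionein Mt1 (1.13) and the elongation factor Eef1a1 (1.2) rose as well. Of the called genes with the most counts on the other side, Hspa5 and Hspa8 are described with the chaperones. Pde4b, a phosphodiesterase of cyclic AMP, stood at 2041 and 2008 CPM in CPEB4 RIP, 4648 and 4448 in input and 3722 and 3309 in IgG RIP (-1.17, SE 0.12). Dusp1, a phosphatase that switches off MAP kinases, stood at 1144 and 1094 CPM in CPEB4 RIP, 3623 and 3619.7 in input and 2534 and 2307 in IgG RIP (-1.69, SE 0.12). The receptor kinase Musk (-0.62), the ankyrin repeat protein Asb5 (-0.88), the calponin Cnn3 (-0.67), the ADP/ATP carrier Slc25a5 (-0.67) and the helicase Ddx5 (-1.04) fell too. The calls were lost, with the fold change then fitted, without CPEB4 RIP replicate 1 for Sdc4 (0.69), Gpx3 (0.68), Musk (-0.4), Asb5 (-0.58), Cnn3 (-0.51), Slc25a5 (-0.48) and Ddx5 (-0.9), without CPEB4 RIP replicate 2 for Sdc4 (0.53), Actb (1.07), Fth1 (1.31), Gpx3 (0.76), Mt1 (1.2), Pde4b (-1.09), Musk (-0.67), Asb5 (-1.02), Cnn3 (-0.65), Slc25a5 (-0.67) and Ddx5 (-1.0), without input replicate 1 for Sdc4 (0.53), Musk (-0.67), Asb5 (-0.96) and Cnn3 (-0.72) and without input replicate 2 for Sdc4 (0.54), Gpx3 (0.61), Musk (-0.54), Asb5 (-0.76), Cnn3 (-0.58) and Slc25a5 (-0.45).

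Messages of the cytosolic ribosome rose almost as a block. Of 82 ribosomal protein genes 78 were higher in CPEB4 RIP and 0 lower, against 8% and 4.7% of all genes tested, and all 82 had a fitted log2 ratio above 0. Among those that did not pass were Rpl24, Rpl36al and Rps10. Of all assigned counts, the messages together took 5.41% ± 0.0202 in CPEB4 RIP, 2.38% ± 0.118 in input and 2.81% ± 0.0081 in IgG RIP (SD, n = 2 each). Shares carry no p-value, because 2 libraries a group are too few for an exact permutation test to pass. The median log2 fold change of the list was 1.49 over input, where all genes had -0.06, and that of IgG RIP over input was 0.4, where all genes had 0.05.

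Rps12, of the small subunit, stood at 299 and 339 CPM in CPEB4 RIP, 56.1 and 50.05 in input and 62.5 and 48.6 in IgG RIP, for a fitted log2 ratio to input of 2.59 (SE 0.19, adjusted p = 0.00184). Rps2, also of the small subunit, stood at 1329.7 and 1282 CPM in CPEB4 RIP, 257 and 278 in input and 351 and 339.8 in IgG RIP (2.29, SE 0.13). Rpl12, of the large subunit near the base of the stalk, stood at 481 and 537 CPM in CPEB4 RIP, 118 and 129.7 in input and 118 and 120.2 in IgG RIP (2.04, SE 0.15). In all 3 genes both CPEB4 RIP libraries were above every other library, and the IgG RIP libraries were nearer to input than to CPEB4 RIP. For Rps2 both IgG RIP libraries were also above both input libraries. Rpl8 (1.83) likewise had IgG RIP above input, at a log2 ratio of 0.88. With 1 library left out at a time, in the order CPEB4 RIP replicates 1 and 2, input replicates 1 and 2 and IgG RIP replicates 1 and 2, 75, 34, 72, 73, 81 and 81 ribosomal protein genes were higher, so CPEB4 RIP replicate 2 was the library on which the count most depended. The median stayed between 1.48 and 1.64. These gene models are short, with a median length of 1754.5 bases against 3841 over all genes, and a length offset left 70 higher at a median of 1.34. Many processed pseudogenes copy these genes. How multiply matching reads were counted is not stated in the labels or headers, and values of single members are uncertain to that extent.

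Vertebrate ribosomal protein messages are known as TOP messages, because they begin with a run of C and T bases (C and U in the RNA) through which growth signals control their translation. Since the members rose together, the 300 bases around each start in RefSeq (250 before, 50 after; build GRCm38.p6, first start listed per gene) were searched for a run of at least 8 C or T bases on the gene's own strand within 50 bases of the start, where runs may be part of longer ones cut by the window. Such a run was present in 50 of the 61 ribosomal protein genes with a sequence (82%). It was in 9650 of all 27025 promoters (35.7%) and in 3833 of 11676 genes tested with a sequence (32.8%). By call, it was in 330 of 986 genes higher (33.5%) and in 178 of 603 lower (29.5%). The 3 members described above show it in capitals, 5′ to 3′ on the gene's strand, for Rps12 at chr10:23787182-23787211 (minus strand), Rps2 at chr17:24720083-24720112 (plus strand) and Rpl12 at chr2:32961732-32961761 (plus strand). Where a window holds several runs the longest is in capitals, and the Rps2 stretch shows a further run, tcccttcc, in lower case. Counted from 1 at the first transcribed base of RefSeq, the runs in capitals begin at positions 9, 41 and 40.
Rps12: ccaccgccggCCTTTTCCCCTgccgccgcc
Rps2: aaattgtcccttccgcggcgCCTCCCTCTT
Rpl12: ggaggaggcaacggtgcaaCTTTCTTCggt
A match is a description of these letters and not a measured start of transcription.

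Messages of this class outside the ribosome had members on both sides. Of 26 such genes 16 were higher and 3 lower, at a median of 0.75 (0.36 for IgG RIP), and 10 of 18 with a promoter sequence held the run (55.6%). Tpt1, the translationally controlled tumour protein, stood at 1702 and 1864 CPM in CPEB4 RIP, 429 and 494 in input and 371 and 425 in IgG RIP, for a fitted log2 ratio to input of 1.95 (SE 0.15, adjusted p = 0.00184). Rack1, a scaffold on the small ribosomal subunit, stood at 1466 and 1437 CPM in CPEB4 RIP, 572 and 655 in input and 703 and 727 in IgG RIP (1.24, SE 0.13). The 3 lower members were Slc25a5 (-0.67), the chaperonin subunit Cct4 (-0.66) and the initiation factor Eif3l (-0.65). The same leave-out fits, in the order given for the ribosomal proteins, called 11, 3, 8, 12, 20 and 20 higher and 0, 0, 1, 0, 3 and 3 lower, and a length offset left 13 higher and 1 lower.

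Translation factors split by member. Of 50 genes 16 were higher and 3 lower, at a median of 0.42 (0.29 for IgG RIP). Eif3f, a subunit of initiation factor 3, stood at 219.9 and 192 CPM in CPEB4 RIP, 62.8 and 66.1 in input and 92.3 and 93.1 in IgG RIP, for a fitted log2 ratio to input of 1.68 (SE 0.15, adjusted p = 0.00198). Eif1, which guards the choice of the start codon, stood at 1689 and 1666 CPM in CPEB4 RIP, 717 and 819 in input and 1106 and 1200.0 in IgG RIP (1.13, SE 0.13). The elongation factor subunit Eef1b2 rose (1.17, SE 0.14). In contrast Eif4g1, the scaffold of the cap-binding complex, stood at 60.5 and 65.4 CPM in CPEB4 RIP, 137 and 119 in input and 111 and 97.04 in IgG RIP (-1.02, SE 0.17), and Eif3c (-0.82) and Eif3l were lower as well. With 1 library left out, in the same order, 8, 2, 5, 9, 27 and 27 were higher and 0, 0, 0, 1, 6 and 6 lower.

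Aminoacyl tRNA synthetases, the enzymes that charge tRNAs with amino acids, lay on the other side. Of 20 cytosolic synthetase genes 11 were lower and 0 higher, at a median of -0.85 (-0.1 for IgG RIP), and of all assigned counts they held 0.237% ± 0.00703 in CPEB4 RIP, 0.615% ± 0.0455 in input and 0.45% ± 0.0331 in IgG RIP (SD, n = 2 each). Tars, for threonine, stood at 162 and 169 CPM in CPEB4 RIP, 489 and 585 in input and 331 and 467 in IgG RIP, for a fitted log2 ratio to input of -1.7 (SE 0.2, adjusted p = 0.00342). Eprs, the fused enzyme for glutamate and proline, stood at 434 and 515 CPM in CPEB4 RIP, 1267 and 1518 in input and 951 and 1118 in IgG RIP (-1.55, SE 0.17). Iars, for isoleucine, stood at 66.2 and 68.7 CPM in CPEB4 RIP, 169.5 and 174 in input and 128 and 151 in IgG RIP (-1.35, SE 0.16). In each of these the IgG RIP libraries were below both input libraries and above both of CPEB4 RIP. Farsa, for phenylalanine, stood at 42.2 and 51.2 CPM in CPEB4 RIP, 155 and 125 in input and 65.1 and 61.4 in IgG RIP (-1.58, SE 0.19), and there IgG RIP lay nearer to CPEB4 RIP. Among the 9 that did not pass were Gars, Hars, Kars and Wars. Lars2, the widest rise of a synthetase gene, is the mitochondrial enzyme and no member of this list. Leaving out 1 library gave 4, 0, 8, 8, 13 and 13 lower, in the order used above, so that none passed without CPEB4 RIP replicate 2. A length offset left 9.
Several cytosolic synthetase genes are known targets of the stress factor ATF4, which binds composite C/EBP-ATF elements; one form has the letters TGATGCAA. These letters, or their reverse complement TTGCATCA, were in the same 300-base windows of 4 of 12 synthetase genes with a sequence (33.3%: Aars, Iars, Tars and Yars). They were in 251 of all 27025 promoters (0.929%) and in 74 of 11676 genes tested with a sequence (0.634%). By call, 4 of 986 genes higher (0.406%) and 6 of 603 lower (0.995%) held them. The match is shown in capitals, 5′ to 3′ on the gene's strand, for the 2 whose values are given above, Tars at chr15:11399655-11399684 (minus strand) and Iars at chr13:49682126-49682155 (plus strand).
Tars: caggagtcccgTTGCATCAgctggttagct
Iars: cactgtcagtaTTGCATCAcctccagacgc
Atf4 itself stood at 672 and 640.0 CPM in CPEB4 RIP, 275 and 259.5 in input and 332 and 301 in IgG RIP, and rose (1.3, SE 0.14), with both IgG RIP libraries nearer to input. Binding of the factor was not measured.

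RNAs of the mitochondrial genome were among the widest rises, and in 3 of the 5 messages described here the IgG RIP libraries were not above input. Of 13 protein-coding messages 9 were higher and 0 lower, at a median of 2.05 (-0.28 for IgG RIP), and of all assigned counts they held 4.2% ± 0.177 in CPEB4 RIP, 1.31% ± 0.176 in input and 1.05% ± 0.187 in IgG RIP (SD, n = 2 each). mt-Nd1, a core subunit of complex I, stood at 5393 and 4938 CPM in CPEB4 RIP, 1106 and 1269.7 in input and 806 and 1028 in IgG RIP, for a fitted log2 ratio to input of 2.12 (SE 0.16, adjusted p = 0.00184). mt-Co1, the catalytic subunit of cytochrome c oxidase, stood at 10200.3 and 9002 CPM in CPEB4 RIP, 1534 and 2418 in input and 1300.1 and 1957 in IgG RIP (2.28, SE 0.27). mt-Cytb, the cytochrome b of complex III, stood at 21362 and 22767 CPM in CPEB4 RIP, 6246 and 8333 in input and 4331 and 6178 in IgG RIP (1.6, SE 0.2). The CPEB4 RIP libraries were above all other libraries in each of these. mt-Nd6, the message encoded on the opposite strand to the rest, stood at 1291 and 1314 CPM in CPEB4 RIP, 188 and 233 in input and 478 and 839 in IgG RIP (2.63, SE 0.27), and mt-Nd5 at 2335 and 2237 CPM in CPEB4 RIP, 508 and 571 in input and 1124 and 1438 in IgG RIP (2.08, SE 0.16). For these 2 the IgG RIP libraries lay between the groups. Without a stated strand setting, reads from both strands of the mitochondrial genome cannot be told apart. Both ribosomal RNAs of the mitochondrion rose, mt-Rnr1 (2.42, SE 0.33) and mt-Rnr2 (2.37, SE 0.28), as did 3 of 9 of its tRNAs. mt-Nd3, mt-Nd4l, mt-Atp6 and mt-Atp8 did not pass. The leave-out fits called 8, 6, 8, 8, 12 and 12 messages higher, in the order used above; removing the mitochondrial genes before scaling left 1556 other genes higher and 917 lower.

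Nuclear genes for the respiratory chain rose in part, and a few were lower. Of 77 genes 51 were higher and 3 lower, at a median of 0.89 (0.14 for IgG RIP), and their share of the counts was 1.45% ± 0.0135 in CPEB4 RIP, 1.07% ± 0.000371 in input and 1.07% ± 0.0233 in IgG RIP (SD, n = 2 each). Cox8a, a small subunit of cytochrome c oxidase, stood at 438 and 469.6 CPM in CPEB4 RIP, 187 and 163 in input and 186 and 182 in IgG RIP, for a fitted log2 ratio to input of 1.38 (SE 0.15, adjusted p = 0.00267). Ndufa1, an accessory subunit of complex I, stood at 209 and 226 CPM in CPEB4 RIP, 91.9 and 105 in input and 81.7 and 80.7 in IgG RIP (1.15, SE 0.15). Ndufa2 (1.03) and Cox6a1 (1.03) rose too. The 3 lower members were Sdha, the flavoprotein of complex II, at 144 and 129.6 CPM in CPEB4 RIP, 289.7 and 304 in input and 202 and 196 in IgG RIP (-1.12, SE 0.14), Ndufs1, the largest subunit of complex I (-1.42, SE 0.19), and Uqcrc1, a core protein of complex III (-0.92, SE 0.14). The gene models of Cox8a and Ndufa1 are 619 and 419 bases long and those of Sdha and Ndufs1 4126 and 8086. With a length offset 19 were higher and 3 lower. Respiratory chain genes higher with 1 library left out numbered 32, 0, 15, 31, 63 and 63 in the same order, so none passed without CPEB4 RIP replicate 2.

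In the other mitochondrial groups fewer members passed. Of 77 mitochondrial ribosome genes 16 were higher and 1 lower, at a median of 0.47; Mrpl52 (1.43, SE 0.21) and Mrpl54 (1.15, SE 0.17) rose, while Mrps27 fell (-0.89, SE 0.23). Of 23 genes named Timm or Tomm, the import machinery, 9 were higher and 0 lower, at a median of 0.63. Among them Timm23, the channel of the inner membrane, stood at 568 and 659 CPM in CPEB4 RIP, 345 and 417 in input and 256 and 303 in IgG RIP (0.69, SE 0.17). Of 21 tricarboxylic acid cycle genes 1 was higher and 3 lower, at a median of -0.31. The dehydrogenase subunit Ogdh stood at 78.2 and 77.6 CPM in CPEB4 RIP, 133 and 129 in input and 136 and 120.4 in IgG RIP (-0.75, SE 0.15), and Aco1, a cytosolic aconitase that the list also holds, was lower too (-1.31). Dlst, of the same complex as Ogdh, was higher (0.59). In glycolysis, 1 of 21 genes was higher, Gapdh at 474 and 419 CPM in CPEB4 RIP, 208 and 226 in input and 334 and 286 in IgG RIP (1.04, SE 0.15), and 3 were lower: the hexokinase Hk2 at 109 and 117 CPM in CPEB4 RIP, 257 and 299 in input and 241 and 235 in IgG RIP (-1.3, SE 0.15), Pfkp (-1.35) and Eno1 (-0.74). In the same order the leave-out fits called 3, 0, 1, 4, 44 and 45 higher for the mitochondrial ribosome, 0, 0, 1, 1, 8 and 8 lower for the cycle and 2, 0, 2, 2, 5 and 5 lower for glycolysis.

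The list of thymosins, S100 proteins and metallothioneins, which also holds ferritins, small selenoproteins and other short abundant messages, held rises and no falls. Of its 28 genes 22 were higher and 0 lower, at a median of 1.05 (0.38 for IgG RIP). Mt1, a metallothionein that binds zinc and copper, stood at 7275 and 7207 CPM in CPEB4 RIP, 3667 and 2959 in input and 4929 and 4711 in IgG RIP, for a fitted log2 ratio to input of 1.13 (SE 0.14, adjusted p = 0.00373). Selenow, a small selenoprotein of muscle, stood at 492 and 473 CPM in CPEB4 RIP, 190.1 and 201 in input and 152 and 141 in IgG RIP (1.3, SE 0.14), with IgG RIP below input, and Dynll1, a dynein light chain, stood at 173 and 158 CPM in CPEB4 RIP, 63.6 and 73.5 in input and 76.1 and 73.5 in IgG RIP (1.27, SE 0.16). Members higher with 1 library left out numbered 12, 0, 10, 13, 26 and 26 in the same order. The median gene model of the list is 1539.5 bases, and a length offset left 11 higher.

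Several chaperones of the endoplasmic reticulum were lower, and the machinery that moves proteins into that compartment had members on both sides. Of 23 chaperone genes, those of the unfolded protein response included, 2 were higher and 8 lower, at a median of -0.25 (-0.22 for IgG RIP), and of all assigned counts they held 1.39% ± 0.0623 in CPEB4 RIP, 3.46% ± 0.131 in input and 2.51% ± 0.107 in IgG RIP (SD, n = 2 each). Hspa5, the main chaperone of the compartment (BiP), stood at 3871 and 4726 CPM in CPEB4 RIP, 17868 and 16772 in input and 12146 and 12674 in IgG RIP, 4.03-fold lower by the means, for a fitted log2 ratio to input of -2.01 (SE 0.13, adjusted p = 0.00184). Herpud1, of the degradation pathway of misfolded proteins, stood at 924 and 972 CPM in CPEB4 RIP, 2783 and 2755 in input and 2241 and 1862 in IgG RIP (-1.55, SE 0.14). The disulfide isomerases Pdia3 (-1.0) and Pdia4 (-1.12) fell, and the 2 that rose were the lectin chaperone Calr, at 450.0 and 459.7 CPM in CPEB4 RIP, 260.2 and 276 in input and 349 and 352 in IgG RIP (0.76, SE 0.13), and Atf4. Of 31 genes of the translocon and signal recognition particle 10 were higher and 4 lower. The small subunits Sec61b (1.06) and Sec61g (0.97) of the translocation channel rose while its pore subunit Sec61a1 fell (-0.64). In the oligosaccharyl transferase, the small Ost4 stood at 129.9 and 132 CPM in CPEB4 RIP, 50.3 and 55.98 in input and 50.2 and 44.6 in IgG RIP (1.3, SE 0.16) and Rpn2 at 85.2 and 83.96 CPM in CPEB4 RIP, 148 and 154 in input and 112 and 89.9 in IgG RIP (-0.83, SE 0.17). Srp9 of the particle rose (0.99), and its receptor subunit Srpr (-0.53) and the signal peptidase subunit Spcs3 (-0.97) fell. The fits without 1 library called 2, 2, 6, 5, 8 and 8 lower for the chaperones, in the same order, and their median was -0.03 without CPEB4 RIP replicate 1 and turned to 0.00692 without input replicate 2. For the translocon list they called 6, 0, 2, 6, 16 and 16 higher and 0, 0, 1, 0, 6 and 6 lower, and a length offset left 6 higher and 0 lower.

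Cytosolic chaperones and the proteasome held members on both sides. Of 8 subunits of the chaperonin, the barrel that folds actin and tubulin, 5 were lower and 1 higher, at a median of -0.68. Cct5 stood at 407 and 453 CPM in CPEB4 RIP, 729 and 839 in input and 730.1 and 719 in IgG RIP (-0.87, SE 0.14), Cct2 at 233 and 263 CPM in CPEB4 RIP, 149.7 and 174 in input and 205 and 237 in IgG RIP (0.62, SE 0.16). Cct3, Cct4, Cct7 and Cct8 were lower, by -0.77 to -0.66. Of 15 heat shock genes 3 were lower and 2 higher. Hspa8, the constitutive HSP70, stood at 3709.7 and 3624 CPM in CPEB4 RIP, 9401 and 9070.4 in input and 9531 and 8132 in IgG RIP, for a fitted log2 ratio to input of -1.33 (SE 0.12, adjusted p = 0.00198), and Hspa4 (-0.89) and Hsph1 (-0.84) fell. The inducible Hspa1b stood at 140.1 and 105 CPM in CPEB4 RIP, 45.5 and 33.5 in input and 134 and 97.5 in IgG RIP (1.63, SE 0.25), with IgG RIP above input to a like extent (1.55), and Hspe1, a mitochondrial co-chaperonin that the list also holds, rose (0.82). Of 41 proteasome genes 5 were lower and 1 higher, at a median of 0.04 that turned to -0.18 with library size scaling and -0.01 with DESeq2 size factors. Psmd2, a base subunit of the cap, stood at 129 and 129 CPM in CPEB4 RIP, 343 and 383 in input and 243 and 298 in IgG RIP (-1.49, SE 0.16), while Psme3, an alternative activator, stood at 92.1 and 101 CPM in CPEB4 RIP, 36.2 and 47.2 in input and 41.1 and 46.1 in IgG RIP (1.22, SE 0.2). Of 30 genes of the proton pump and lysosome 3 were higher, among them the small pump subunit Atp6v1f (0.92), and 6 lower, among them Atp6ap1 (-1.07) and Lamp2 (-0.91). Lower with 1 library left out, in the same order, were 0, 0, 1, 0, 5 and 5 for the chaperonin, 1, 0, 2, 1, 6 and 6 for heat shock genes, 1, 0, 2, 1, 8 and 8 for the proteasome and 0, 0, 4, 2, 10 and 10 for the pump and lysosome. Members higher in these fits numbered 0, 0, 0, 0, 1 and 1, 1, 1, 2, 0, 2 and 2, 1, 0, 0, 1, 11 and 11 and 1, 0, 0, 2, 6 and 6.

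Where RNAs that stay in the nucleus and messages of nuclear pore proteins passed, they were lower. Of 13 nuclear long noncoding RNAs 4 were lower and 0 higher, at a median of -0.65 (-0.2 for IgG RIP). Meg3, an imprinted RNA, stood at 83.8 and 80.6 CPM in CPEB4 RIP, 370.3 and 256 in input and 173 and 176 in IgG RIP, for a fitted log2 ratio to input of -1.93 (SE 0.2, adjusted p = 0.00254), and Rian, of the same imprinted cluster, at 31.5 and 31.9 CPM in CPEB4 RIP, 73.03 and 68.6 in input and 74.6 and 62.8 in IgG RIP (-1.16, SE 0.18). The other lower members were Kcnq1ot1 and 2900097C17Rik (-1.18), known as Norad, which is itself largely cytoplasmic. Of 29 nuclear pore genes 8 were lower and 0 higher, at a median of -0.46. Nup93, of the inner ring, stood at 15.5 and 14.4 CPM in CPEB4 RIP, 53.1 and 54.9 in input and 34.1 and 48.8 in IgG RIP (-1.85, SE 0.23), and Nup88 (-1.3) and Ranbp2 (-1.27), of the cytoplasmic face, were lower too. Of 56 chromatin regulators 4 were lower (7.14%, against 4.7% of all genes tested), among them the acetyltransferase adaptor Trrap (-1.56, SE 0.22), and 0 higher. Their gene models have a median length of 13176 bases, and a length offset turned the median from -0.11 to 0.33, with 0 lower and 1 higher, and it was 0.08 without CPEB4 RIP replicate 1. Of 34 replication and mitosis genes, Rrm1 (-1.58) and Mcm4 (-1.73) were lower (5.88%, near the share over all genes) and 32 did not pass. In the leave-out fits the members lower numbered 2, 1, 3, 2, 7 and 7 for the noncoding RNAs, 2, 0, 4, 3, 14 and 14 for the pore, 0, 0, 2, 1, 15 and 15 for chromatin regulators and 0, 0, 0, 0, 14 and 11 for replication and mitosis, in the same order.

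Splicing proteins went both ways. Of 57 splicing regulators and hnRNPs 12 were higher and 11 lower, at a median of -0.03 (0.29 for IgG RIP). The hnRNP Hnrnpab stood at 234 and 245 CPM in CPEB4 RIP, 39.4 and 54.8 in input and 75.6 and 85.2 in IgG RIP, for a fitted log2 ratio to input of 2.35 (SE 0.2, adjusted p = 0.00184), and Hnrnpd, which binds AU-rich elements, at 123 and 136 CPM in CPEB4 RIP, 33.5 and 34.2 in input and 68.5 and 80.9 in IgG RIP (1.93, SE 0.17). For both Hnrnpab and Hnrnpd the IgG RIP libraries were also above both input libraries. The balance depended on scaling and length: library size scaling gave 10 higher and 19 lower, and a length offset 13 and 3. The median turned to 0.15 without CPEB4 RIP replicate 1 and 0.1 without input replicate 2. The kinase Clk1 stood at 176 and 165 CPM in CPEB4 RIP, 460.3 and 588 in input and 363 and 439 in IgG RIP (-1.62, SE 0.18), and the branch point factor Sf3b1 at 419.9 and 430.4 CPM in CPEB4 RIP, 844 and 906 in input and 994 and 1112 in IgG RIP (-1.04, SE 0.13), with IgG RIP above input. The SR protein Srsf2 fell (-1.35), and its IgG RIP value against input was close to that, at -1.26, in a comparison where no gene passed. Of 26 Sm and LSm genes, most of which encode small proteins that form rings on RNA, 11 were higher and 1 lower, at a median of 0.77. Snrpf stood at 103 and 104 CPM in CPEB4 RIP, 32.4 and 40.8 in input and 40.2 and 38.1 in IgG RIP (1.5, SE 0.18) and Lsm14a, a partner of the helicase Ddx6 in storage granules, at 105 and 111 CPM in CPEB4 RIP, 29.5 and 35.6 in input and 46.6 and 65.6 in IgG RIP (1.73, SE 0.22). Snrnp70, of the U1 particle, was lower (-1.0). Of 18 noncoding hosts of snoRNAs, 5 were higher, among them Zfas1 (1.48, SE 0.23) and Snhg8 (1.25, SE 0.24), and Snhg6 was lower (-1.51, SE 0.28). The variant histones H2afv (0.91), H2afz (0.7) and H2afy (0.98) rose out of 12, while none of the 10 replication histones tested, of 41 listed, passed. Leave-out fits in the same order called 7, 2, 5, 7, 16 and 16 higher and 1, 0, 6, 4, 16 and 16 lower for splicing proteins, 7, 0, 4, 5, 18 and 18 higher for Sm and LSm genes and 1, 0, 0, 0, 10 and 9 higher for snoRNA hosts.

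Immediate early genes, which respond to isolation and activation of muscle stem cells within minutes, held more rises than falls, and Myc and Dusp1 were among the falls. Of 39 genes 16 were higher and 5 lower, at a median of 0.66 (0.39 for IgG RIP). The AP-1 subunit Jund stood at 134 and 121 CPM in CPEB4 RIP, 28.99 and 20.5 in input and 31.1 and 50.5 in IgG RIP, for a fitted log2 ratio to input of 2.36 (SE 0.28, adjusted p = 0.00364). The bZIP factor Maff stood at 206 and 201 CPM in CPEB4 RIP, 58.8 and 53.9 in input and 109.8 and 89.1 in IgG RIP (1.85, SE 0.17). The nuclear receptor Nr4a3 stood at 89.3 and 88.3 CPM in CPEB4 RIP, 25.5 and 25.5 in input and 61.3 and 69.6 in IgG RIP (1.8, SE 0.17). Both IgG RIP libraries lay between the groups for Maff and Nr4a3. Lower were Myc, the growth-promoting transcription factor, at 483 and 516 CPM in CPEB4 RIP, 1925 and 1562 in input and 1264 and 1165 in IgG RIP (-1.8, SE 0.15), Dusp1, the matrix protein Ccn1 at 319.9 and 360.3 CPM in CPEB4 RIP, 1123 and 756 in input and 909 and 568 in IgG RIP (-1.47, SE 0.27) and Egr2 (-0.97). Scaling by library size gave 11 higher and 10 lower. With 1 library left out, in the same order, 7, 3, 8, 8, 23 and 23 were higher and 2, 2, 2, 3, 10 and 9 lower.

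Genes of muscle stem cell identity were in part higher and in part lower. Of 24 genes 6 were higher and 3 lower, at a median of 0.64 (0.28 for IgG RIP). Pax7 stood at 289.7 and 265 CPM in CPEB4 RIP, 151 and 174 in input and 189 and 282 in IgG RIP, for a fitted log2 ratio to input of 0.77 (SE 0.21, adjusted p = 0.0531), which did not pass. Myf5 stood at 2761 and 4098 CPM in CPEB4 RIP, 1172 and 2298 in input and 2179 and 4794 in IgG RIP (0.98, SE 0.43, adjusted p = 0.182), and its CPEB4 RIP libraries were both above input. Myod1 stood at 931 and 1019 CPM in CPEB4 RIP, 851 and 750.5 in input and 930.1 and 1025 in IgG RIP (0.28, SE 0.14, adjusted p = 0.227). The intermediate filament gene Des (0.99, SE 0.14) and the FGF signalling inhibitor Spry1 (0.84, SE 0.17) rose. The adhesion molecule Vcam1 stood at 691 and 751 CPM in CPEB4 RIP, 1643 and 1614 in input and 1332 and 1301 in IgG RIP (-1.18, SE 0.12), the calcitonin receptor Calcr, which holds satellite cells quiescent, at 95.4 and 90.4 CPM in CPEB4 RIP, 257 and 228 in input and 187 and 119.8 in IgG RIP (-1.38, SE 0.22), and the lectin Chodl fell (-0.52, SE 0.13). Of 49 surface receptors and adhesion proteins 5 were higher (10.2%) and 2 lower (4.08%), near the 8% and 4.7% of all genes tested. Among those higher were Tgfbr2 (1.1, SE 0.21), Notch3 (1.02, SE 0.22) and Fgfr1 (0.61, SE 0.14), and Vcam1 and Calcr were the 2 lower. The median of 0.15 turned to -0.05 with library size scaling, with 1 higher and 7 lower. Under that scaling the identity list had 2 higher and 3 lower. Each library left out in turn gave 1, 0, 1, 0, 14 and 14 higher for identity and 0, 0, 0, 0, 17 and 17 for receptors, in the same order, and 1, 0, 1, 1, 3 and 3 and 1, 0, 1, 1, 4 and 4 lower. Pax7 passed without IgG RIP replicate 1 (0.83) or 2 (0.83), and so did Myf5 (1.05 and 1.06).

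Matrix and secreted proteins were higher where they passed, except for 2. Of 37 genes 11 were higher and 2 lower, at a median of 0.61 (0.45 for IgG RIP). The fibrillar collagen Col3a1 stood at 809 and 790.1 CPM in CPEB4 RIP, 365 and 345 in input and 523 and 555 in IgG RIP, for a fitted log2 ratio to input of 1.17 (SE 0.13, adjusted p = 0.00281). The basement membrane collagen Col4a1 stood at 398 and 357 CPM in CPEB4 RIP, 203 and 174 in input and 296 and 301 in IgG RIP (1.0, SE 0.15). Of the metalloproteinase inhibitors, Timp2 stood at 191 and 174 CPM in CPEB4 RIP, 69.5 and 72.4 in input and 105 and 112 in IgG RIP (1.36, SE 0.15) and Timp3 at 160.3 and 138 CPM in CPEB4 RIP, 406 and 410.4 in input and 297 and 275 in IgG RIP (-1.45, SE 0.15), in opposite directions. The laminin chain Lama2 fell (-0.86, SE 0.16). Matrix genes higher with 1 library left out numbered 3, 1, 5, 3, 23 and 23, in the same order.

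Messages reported elsewhere as targets of CPEB proteins did not move one way. Of 19 genes 4 were higher, 3 lower and 12 did not pass, at a median of 0.02 (0.26 for IgG RIP) that turned to -0.21 with library size scaling and -0.04 with DESeq2 size factors. The angiogenic factor Vegfa stood at 49.1 and 49.1 CPM in CPEB4 RIP, 17.4 and 17.9 in input and 26.2 and 35.2 in IgG RIP, for a fitted log2 ratio to input of 1.48 (SE 0.22, adjusted p = 0.00687), and the mitochondrial carrier Ucp2 at 83.01 and 88.4 CPM in CPEB4 RIP, 42.4 and 30.1 in input and 52.03 and 59.96 in IgG RIP (1.24, SE 0.21). Zfp36 (0.67, SE 0.17) and Zfp36l1 (1.05, SE 0.21), which destabilise AU-rich messages, also rose, but their IgG RIP levels, 318 and 361 and 442 and 679 CPM, overlapped or exceeded those of CPEB4 RIP. The tissue plasminogen activator Plat stood at 69.4 and 76.3 CPM in CPEB4 RIP, 241 and 243 in input and 163 and 133 in IgG RIP (-1.73, SE 0.16), and the tumour suppressor Trp53 fell (-0.54, SE 0.14), as did Myc. The leave-out fits called 2, 0, 1, 1, 6 and 6 higher and 2, 2, 2, 2, 5 and 5 lower, in the same order. The sequence element that CPEB proteins bind lies in 3′ untranslated regions, which were not used here.

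Genes of the polyadenylation and deadenylation machinery itself gave 6 higher and 2 lower of 38, at a median of 0.11 that turned to -0.11 with library size scaling. The poly(A)-binding protein Pabpc1 stood at 597 and 589 CPM in CPEB4 RIP, 307 and 360.1 in input and 426 and 398 in IgG RIP (0.83, SE 0.14), and the deadenylase Cnot6 at 125 and 115 CPM in CPEB4 RIP, 38.3 and 54.7 in input and 84.9 and 101 in IgG RIP (1.37, SE 0.21), with IgG RIP between the groups. Lower were the endonuclease Cpsf3, which cuts messages before tailing, at 17.98 and 15.1 CPM in CPEB4 RIP, 44.2 and 50.98 in input and 31.2 and 27.4 in IgG RIP (-1.52, SE 0.22), and the poly(A)-specific ribonuclease Parn at 14.2 and 17.8 CPM in CPEB4 RIP, 45.6 and 44.6 in input and 37.4 and 42.8 in IgG RIP (-1.49, SE 0.21). Without 1 library, in the same order, 1, 0, 1, 2, 12 and 12 were higher. No message of the CPEB family passed. Cpeb4 had 199 and 284 counts in CPEB4 RIP, 242 and 174 in input and 103 and 406 in IgG RIP, for a fitted log2 ratio to input of 0.23 (SE 0.44, adjusted p = 0.771). Cpeb1 had 325 and 564 counts in CPEB4 RIP, 526 and 496 in input and 288 and 429 in IgG RIP (-0.25, SE 0.22, adjusted p = 0.503). Cpeb2 (0.24, SE 0.73, adjusted p = 0.866) and Cpeb3 (0.6, SE 0.83, adjusted p = 0.679) rested on 10 to 122 counts a library. The antibody acts on the protein, so the level of its message is no check of the pulldown.

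**Figure D3:**
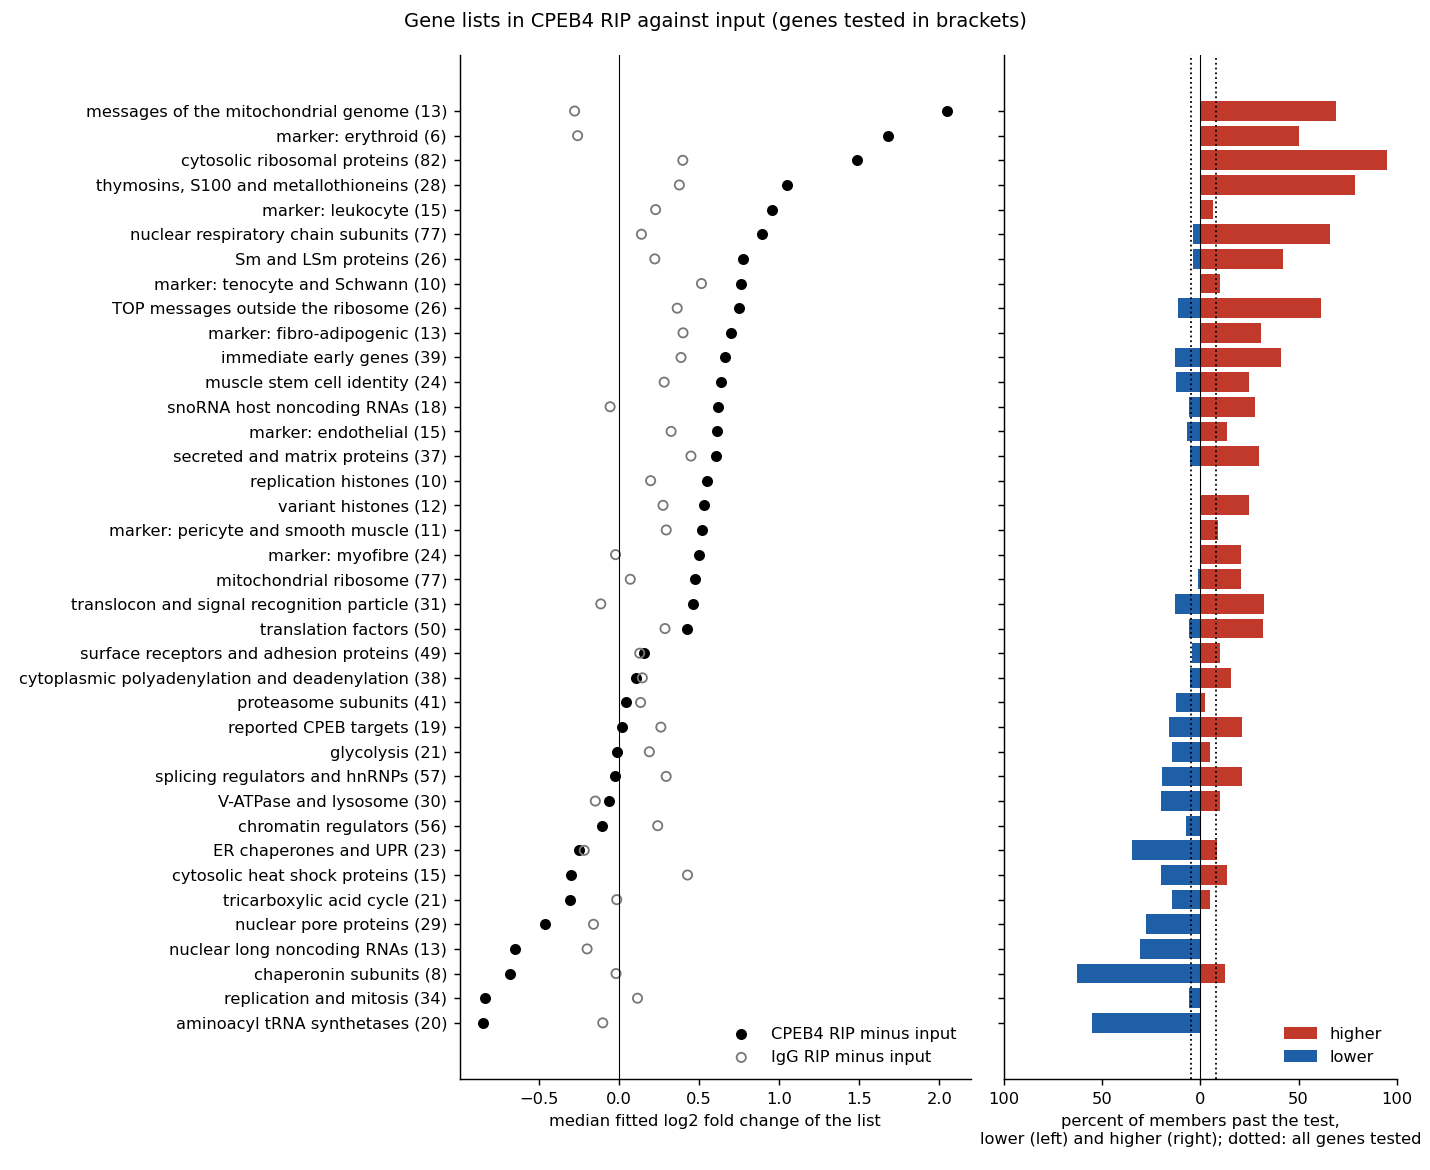
Left, median fitted log2 fold change over input of each gene list in CPEB4 RIP (filled) and IgG RIP (open), with the number of genes tested in brackets. Right, percent of each list's genes lower (blue) and higher (red) in CPEB4 RIP. Dotted lines mark 8% higher and 4.7% lower over all 18054 genes, which are not matched to the lists for level. In the highest of 10 bins by mean level, 24.6% of genes were higher and 16.9% lower. The mitochondrial messages (median 2.05) and aminoacyl tRNA synthetases (-0.85) stand at the ends.

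Some markers of other cells in a muscle digest were higher too, where 8% of all genes tested were higher and 4.7% lower. In bulk RNA, the number of cells of a type and the amount of RNA per cell cannot be told apart. Whether the lysates differed in cell content was not tested. Of 6 erythroid genes tested 3 were higher, the globins Hbb-bs, Hba-a1 and Hba-a2, and the summed level of the list in CPM was 626 and 299 in CPEB4 RIP, 123 and 185 in input and 92.6 and 136 in IgG RIP. Hbb-bs stood at 168 and 92.7 CPM in CPEB4 RIP, 21.9 and 37.2 in input and 15.7 and 43.4 in IgG RIP (2.14, SE 0.51), whereas the haem synthesis enzyme Alas2 stood at 3.23 and 1.52 CPM in CPEB4 RIP, 1.58 and 2.97 in input and 2.03 and 0.0755 in IgG RIP, between 0 and 4 CPM in all libraries. Of 13 fibro-adipogenic markers 4 were higher: Col1a1, Col1a2, Col3a1 and Ly6a. Their defining receptor Pdgfra stood at 3.15 and 2.31 CPM in CPEB4 RIP, 4.89 and 3.2 in input and 1.07 and 3.1 in IgG RIP and did not pass; the sum in CPM was 3008 and 2185 in CPEB4 RIP, 1612 and 1658 in input and 1986 and 2391 in IgG RIP. Of 15 endothelial markers 2 were higher, Fabp4 (1.46) and Cdh5 (1.43), and Tek was lower (-0.89). The endothelial sum in CPM was 1090 and 666 in CPEB4 RIP, 629 and 638 in input and 544 and 644 in IgG RIP.

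Of 24 myofibre markers 5 were higher, among them Myl1 (1.27) and Tnnt1 (1.2), and the sum in CPM was 647 and 541 in CPEB4 RIP, 455 and 500.4 in input and 443 and 449 in IgG RIP. Of 15 leukocyte markers S100a8 alone was higher (1.85), while Ptprc stood at 2.07 and 2.0 CPM in CPEB4 RIP, 3.48 and 3.44 in input and 2.99 and 10.2 in IgG RIP; the sum in CPM was 106 and 113 in CPEB4 RIP, 78.2 and 87.95 in input and 79.3 and 88.8 in IgG RIP. The pericyte list had 1 of 11 higher, Notch3, and the tenocyte and Schwann list 1 of 10. Shares higher of the leukocyte (6.67%), pericyte (9.09%) and tenocyte and Schwann (10%) lists were thus near the 8% of all genes tested. Those of the erythroid, fibro-adipogenic, myofibre and endothelial lists were 50%, 30.8%, 20.8% and 13.3%. None of the markers tested was at 0 in all 4 libraries compared. CPEB4 RIP replicate 1 had the highest erythroid, fibro-adipogenic and endothelial sums of all. Without it the median log2 fold changes of the erythroid, fibro-adipogenic, endothelial, myofibre and leukocyte lists were 1.275, 0.58, 0.38, 0.41 and 0.81. Without CPEB4 RIP replicate 2 they were 2.13, 1.16, 1.01, 0.72 and 1.13. Few or none of the marker calls held in either fit. The part of these cells in the results on collagens, other matrix genes and the vessel-associated genes was not tested.

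Fold change went with the length of the gene model. With the 18054 genes in 10 equal bins by length, the median log2 fold change of CPEB4 RIP over input was 0.84 in the shortest (56 to 847 bases), 0.32 in the next, -0.11 in the fifth and -0.39 in the longest (from 9469 bases). For IgG RIP it was 0.3 and 0.15 in the 2 bins of shortest genes and between -0.01 and 0.03 in the other 8. Genes higher made up 13.3% of the shortest bin and 3.1% of the longest, and genes lower 1.22% and 8.86%. The same order held among protein-coding genes after ribosomal protein, respiratory chain and mitochondrial ribosome genes had been left out, with 25.5% higher and 0% lower in the shortest bin (141 genes) and 3.17% and 8.72% in the longest. The median length of the 1445 genes higher was 2691 bases, of the 849 lower 5491 and of those not called 3858.5. Genes higher had a median of 31.3 CPM in input, genes lower 80.6 and genes not called 3.78. With a loess offset for length 1074 genes were higher and 407 lower, of which 963 and 384 were called without it.

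**Figure D4:**
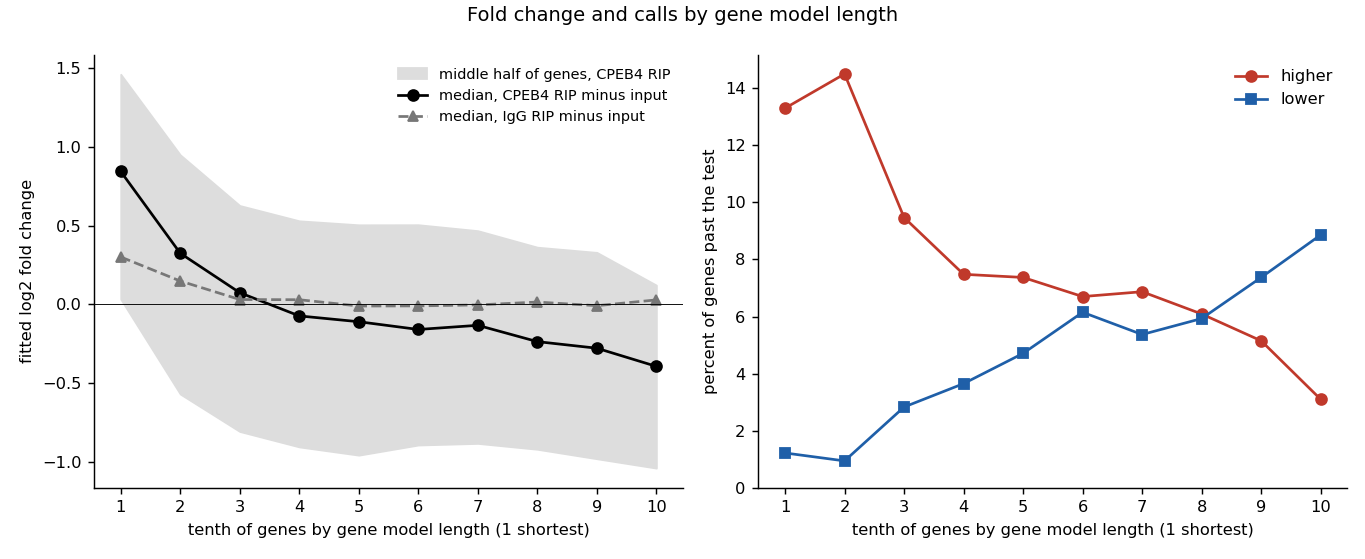
Genes in 10 equal bins by gene model length, from shortest (1) to longest (10). Left, median fitted log2 fold change over input for CPEB4 RIP (black, with the quartiles in grey) and IgG RIP (dashed); right, percent of each bin higher (red) and lower (blue) in CPEB4 RIP, which come closest in the eighth bin (6.09% and 5.93%).

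By level, calls went from 0 higher and 1 lower in the lowest of 10 bins by mean level to 444 and 306 in the highest. These were 24.6% and 16.9% of the highest bin. The gene lists above were set beside all genes tested and not beside genes of like level. Shares in lists of abundant genes carry that limit. The median log2 fold change was -1.77 in the lowest bin, -0.39 in the third and between 0 and 0.2 in each bin from the fourth upwards, and for IgG RIP it was -0.41 in the lowest. Of the olfactory receptor genes, known for their use in the nose, the 149 tested had a median of -2.45 in CPEB4 RIP and -0.03 in IgG RIP, with 2 lower and 0 higher. The 65 vomeronasal receptor genes had -2.34 and -0.17, with 1 lower. The input libraries held counts for more genes than those of CPEB4 RIP, as given at the start. A gene could pass the count filter through the 2 libraries of 1 group, input among them. Genes near the filter's floor and absent from CPEB4 RIP could thus enter only through other libraries. The medians of low-level genes carry that limit, and depletion of the receptor genes was not tested apart from it.

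By class of RNA, the calls were as follows, where 8% of all genes tested were higher and 4.7% lower. Of 13913 protein-coding genes 1210 were higher (8.7%) and 740 lower (5.32%). Of 1814 pseudogenes 178 were higher (9.81%) and 18 lower (0.992%), with a median length of 642 bases. Among the 158 pseudogenes named for ribosomal proteins, whose reads can come from the parent messages, 53 were higher (33.5%) and 0 lower, at a median of 1.73. Of 822 long noncoding RNAs 14 were higher (1.7%) and 18 lower (2.19%). Of 27 snoRNAs, which are cut from introns and carry no poly(A) tail, 0 were higher and 3 lower (11.1%), at a median of -2.74 (-1.13 for IgG RIP). Of 35 ubiquitin-conjugating enzyme genes (Ube2), a family picked after its values were seen, 9 were higher (25.7%) and 0 lower. Zinc finger genes named Zfp had 8 higher (2.37%) and 17 lower (5.04%) of 337.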

How the data were processed

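RNA of 6 libraries (2 each of CPEB4 RIP, input and IgG RIP) was sequenced as 100-base paired reads on a DNBSEQ-G400. Per the submitters' processing notes the tools included HISAT2 and featureCounts with the mouse build mm10; no label or header states versions, the strand setting or the handling of multiply mapped reads. The deposited table holds raw counts per gene and FPKM values (counts scaled by gene length and library total) made by the authors. Dividing one by the other gave each gene model's length, a whole number of bases within 0.01 for all 45787 genes with a count, and each library's total. Symbols were matched to RefSeq for 38890 genes.

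Counts were fitted with edgeR 4.0.16 in R 4.3.3: genes kept by filterByExpr (minimum count 10, minimum total 15), TMM scaling, a quasi-likelihood fit of all 6 libraries by group (3 residual degrees of freedom), a two-sided test of CPEB4 RIP against input, and Benjamini-Hochberg adjustment over 18054 genes at 0.05. SE is the log2 ratio divided by the root of the F statistic. CPM are TMM-scaled; summed marker levels and shares use plain library totals. Because no label ties libraries to separate animals or cultures, p-values measure the spread between these libraries, which may be technical. Precision rests on 2 libraries a group. The fit was tested on simulated counts.

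Genes were named by rule: the 15 widest rises and falls among called genes with at least 10 CPM and groups that do not overlap (unnamed models and pseudogenes passed over), the 10 called genes with the highest CPM each way, up to 4 called members of each list each way by smallest p, the 4 Cpeb genes, Pax7, Myf5 and Myod1. Others (markers of other cells, Timm23, the RNA classes and genes that complete a short count) were added after their values were seen. The members and lists were chosen with earlier results of these data known. Alternatives covered scaling, filters, DESeq2 1.42.0, limma 3.58.1 on log2(FPKM + 1 or 0.1), a length offset, thinning, the replicate number as a block, the 4 libraries alone and each library left out; scaling by the authors' totals and a fit of protein-coding genes alone were chosen after seeing the data. Protein features and 3′ untranslated regions were not analysed here, nor was CPEB4 RIP against IgG RIP. Some genes that the rule picks are not reported here.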

Additional observations from a re-analysis of the deposited data

How the results depend on the processing

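Of 1445 genes higher and 849 lower, the count higher moved by over 1.5 times to 3546 in a fit of only the 4 libraries compared, to 872 with limma on log2(FPKM + 1) without a filter and to 0 with a pseudocount of 0.1 (0 lower as well; 4993 genes at an unadjusted p under 0.05). The count lower moved to 1409 with library size scaling, 1401 with a mean count of at least 20, 1470 with DESeq2's Wald test, 3794 with 4 libraries and 407 with a length offset. With 1 library left out, 95 to 4205 genes were higher and 22 to 3780 lower; the lone library of the group is then assumed to vary like the others. In every other alternative both counts stayed within 1.5 times. The cause of these moves was not tested. By design a fit of 4 libraries lacks the spread of IgG RIP. That fit and each fit with a library left out also have fewer residual degrees of freedom.

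Of 210 named genes, 203 had passed and none of these changed direction in any alternative, but 66 no longer passed with a length offset, 16 with library size scaling, 21 with limma on log2(FPKM + 1), 72 without its filter and all 203 with a pseudocount of 0.1. Among genes that had not passed, the log2 ratio of Cpeb1 turned to 0.000791 without input replicate 2 (-0.43 without replicate 1) and that of Cpeb2 to -0.0355 without input replicate 1 (0.61 without replicate 2). Mitochondrial messages have no value where their genes were removed. Same-numbered libraries deviated with r = -0.02 between CPEB4 RIP and input, 0.13 between CPEB4 RIP and IgG RIP and 0.07 between input and IgG RIP. These values cannot tell whether same-numbered libraries share a lysate or animals, and the labels do not say. With the replicate block 1653 genes were higher and 962 lower in CPEB4 RIP, and 18 and 7 in IgG RIP. The planned summary of protein length was not run. Genes in the lowest expression bins could seldom pass: 1 of 1806 in the lowest.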
